A study of Sus scrofa with 4 samples.

Results

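Axon guidance ligands and receptors are described here in porcine induced pluripotent stem cells carrying a hairpin against LIN28A. The members are the rows of the deposited expression table whose symbol names a class 3 to 7 semaphorin, plexin, neuropilin, SLIT, ROBO, netrin, UNC5 receptor, EPH receptor or ephrin, or is DCC or NELL2. Members were chosen with earlier results of these data known, although this rule itself used names and no measured value. It found 68 of the 16026 genes, 36 coding for ligands and 32 for receptors. PLXNB3 and ROBO4 were not analysed here. The comparison was between 2 groups, each of 2 RNA sequencing libraries. The shLin28a cells carried a hairpin meant to lower LIN28A, which codes for a stem cell protein that binds RNA, and the shNC cells were the negative controls. Both groups were Bamei black pig cells with a labelled development stage of 26.5 d. Numbers 1 and 2 are only names for libraries. It is not labelled whether both shLin28a libraries carry the same hairpin, or whether the libraries of a group are separate cultures. Each p-value therefore measures library-to-library spread, and that spread may be technical. In cells measured in bulk, fewer cells of a type and less RNA per cell cannot be told apart.

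Guidance proteins steer growing axons and migrating cells by attraction or repulsion. Secreted SLITs repel axons through ROBO1 and ROBO2. ROBO3 is needed for commissural axons to cross the midline in mice, and the secreted protein NELL2 is a repellent ligand of ROBO3 there. Netrin-1 attracts axons through DCC and repels them through UNC5 receptors. Most secreted class 3 semaphorins bind neuropilins and signal through plexins, while the membrane-bound semaphorins bind plexins directly. EPH receptors are tyrosine kinases activated by ephrins on neighbouring cells. Many of these genes are also used outside the nervous system, in blood vessels, neural crest and mesenchyme.

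The summed expected counts were 8061417 and 2400985 in shLin28a 1 and 2, against 11847343 and 7125640 in shNC 1 and 2. LIN28A was at 3.14 and 2.58 FPKM (fragments scaled to transcript length and library total) in the shLin28a libraries, against 32.6 and 17.2 FPKM in the shNC libraries. Its counts were only 12 and 3 in shLin28a 1 and 2, against 184 and 59 in shNC 1 and 2. For this gene the log2 fold change was −2.92 ± 0.49 (SE), with an edgeR quasi-likelihood adjusted p of 0.259 and a DESeq2 adjusted p of 0.0110. Of the 7 tested pluripotency markers, LIN28A among them, 3 were lower and 1 was higher at an unadjusted edgeR p under 0.05. At that threshold, used for all marker counts here, 4.26% of all tested genes were higher and 3.45% were lower. SALL4 was at 7.71 and 3.25 FPKM in shLin28a, against 19.2 FPKM in both shNC libraries, LIN28B was at 13.7 and 10.2 FPKM in shLin28a, against 25.1 and 19.0 FPKM in shNC, and KLF4 was at 5.92 and 7.73 FPKM in shLin28a, against 3.86 and 2.74 FPKM in shNC. POU5F1 was at 41.4 and 16.6 FPKM in shLin28a, against 43.4 and 37.7 FPKM in shNC. SOX2 and DNMT3B had log2 fold changes of 0.09 and −0.13. ZFP42, UTF1, TDGF1, DPPA4 and DPPA5 had no row. Both NANOG entries stayed at or below 0.70 FPKM in every library, and ESRRB at or below 0.03 FPKM. Markers of neurons and neural progenitors were present in both groups. The 10 neural progenitor markers summed to 643 and 307 FPKM in shLin28a, against 477 and 365 FPKM in shNC, with SOX1 at 0 in every library. Of the 7 tested, 4 had a positive log2 fold change and 0 had an unadjusted edgeR p under 0.05. Of the 4 neural crest markers tested, 1 was higher and 2 were lower at that threshold. DCX, a microtubule protein of young neurons, was at 22.2 and 10.4 FPKM in shLin28a, against 7.14 and 6.09 FPKM in shNC. The 12 neuronal markers with a row summed to 314 and 266 FPKM in shLin28a, against 193 and 192 FPKM in shNC. A large part of the sum in shLin28a 2 was GAP43. It was at 26.1 and 114 FPKM in shLin28a 1 and 2, against 19.3 and 45.0 FPKM in shNC 1 and 2. Of the 10 neuronal markers tested, 9 had a positive log2 fold change. DCX was among the 5 that were higher at an unadjusted edgeR p under 0.05, and 0 were lower. MAP2 had a log2 fold change of 0.07 and SNAP25 one of −0.27. INA and RBFOX3 were below 1 FPKM in every library. The 13 fibroblast markers summed to 153 and 519 FPKM in shLin28a 1 and 2, against 102 and 214 FPKM in shNC 1 and 2. All 10 tested had a positive log2 fold change, but 0 of them had an unadjusted edgeR p under 0.05. Their median difference from the shNC mean was −0.30 in shLin28a 1 and 2.20 in shLin28a 2, on the log2 scale. Of the defining fibroblast genes, COL6A3 and LUM did not exceed 0.14 FPKM in any library, and DCN was at 0 in both shLin28a libraries, against 3.08 and 0.21 FPKM in shNC. The 6 epithelial markers summed to 80.2 and 42.9 FPKM in shLin28a, against 134 and 159 FPKM in shNC, and all 4 tested were lower at an unadjusted edgeR p under 0.05. The part of these cell types in the results below was not tested.

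No member was called by edgeR at an adjusted p under 0.05, in a fit that called 0 of 11967 tested genes (0%). At an unadjusted p under 0.05 there were 12 higher members, which is 20.3% of the 59 tested, where 4.26% of all tested genes were higher at that threshold. Lower members numbered 4, or 6.78%, where 3.45% of all tested genes were lower. In either direction this is 16 members, or 27.1%, where the share of all tested genes was 7.71%. As the members were chosen with earlier results of these data known, these shares are not an independent test. DESeq2 called 6 members at an adjusted p under 0.05, in a fit that called 1.03% of genes. NELL2 fell, as did 0.27% of genes, and ROBO3, DCC, SLIT1, SEMA6D and UNC5B rose, as did 0.761% of genes. In limma on log2(FPKM + 1) no member was called, and 1 gene in all. The 9 members too low to be tested by edgeR are accounted for with their systems below, and of the tested ones SEMA3E and SEMA3G were under 10 counts in both libraries of a group.

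**Figure D1:**
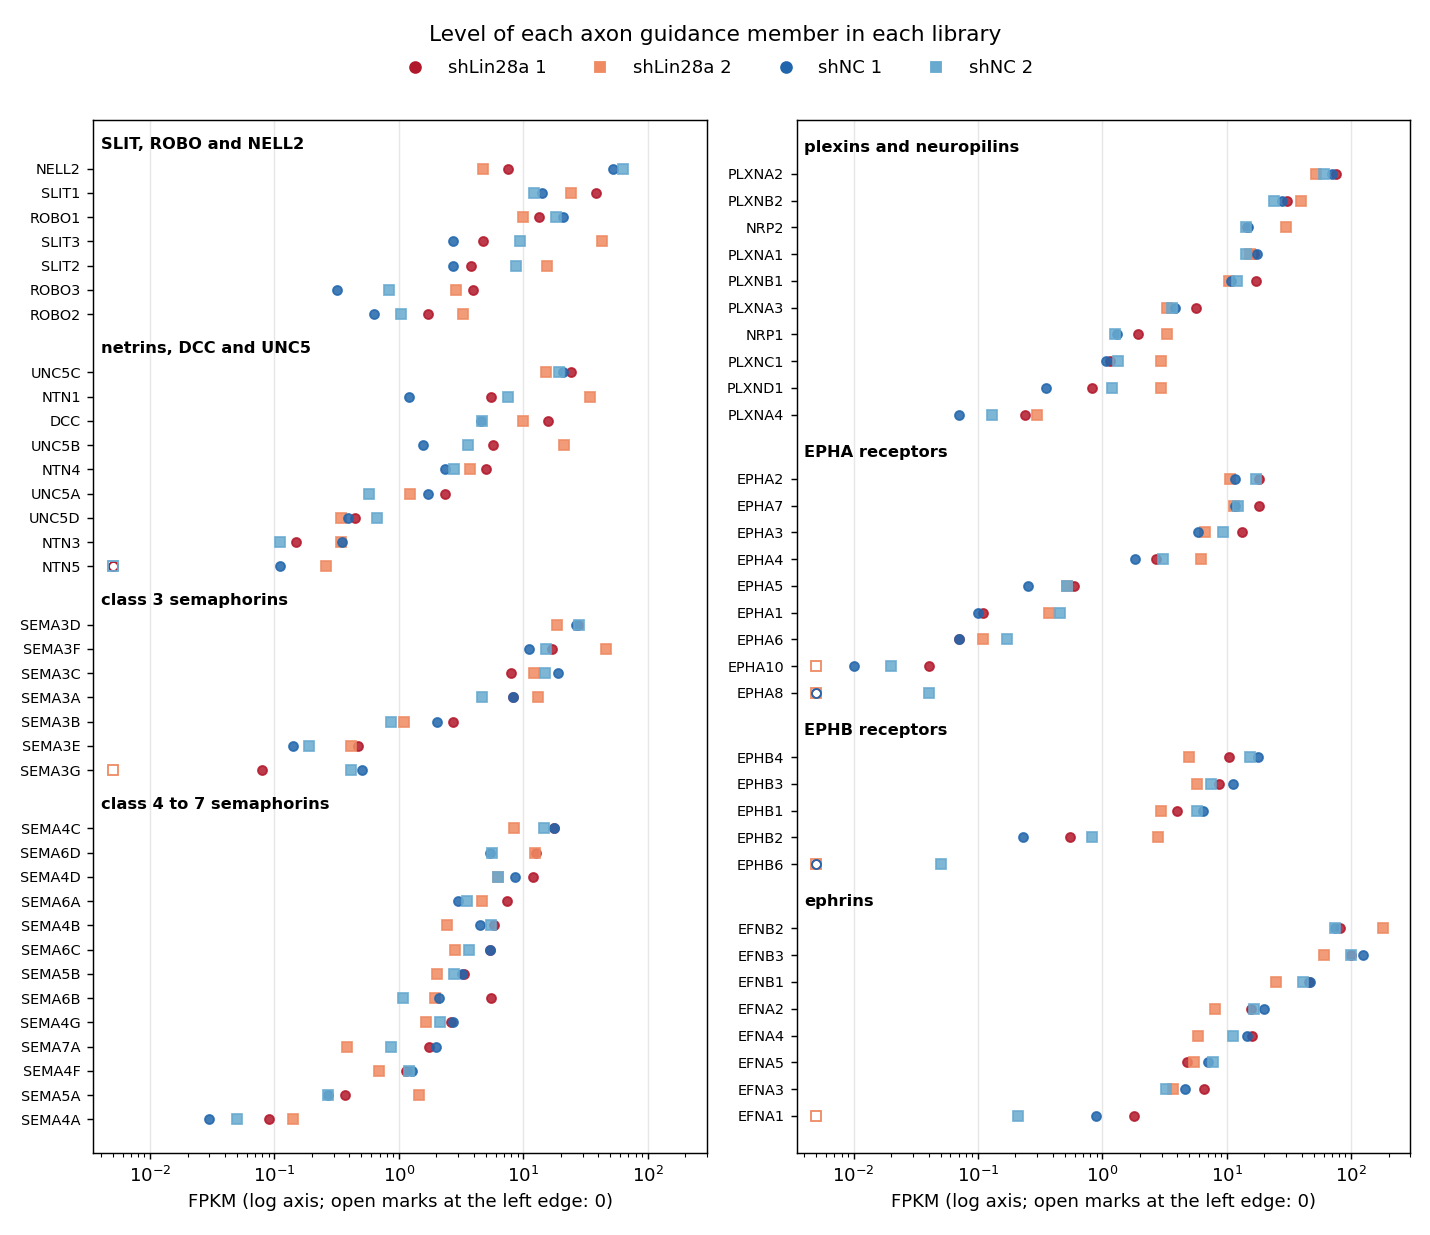
Level of all 68 members by system. The log axis gives FPKM, each filled mark is 1 library (shLin28a 1 and 2 in red and orange, shNC 1 and 2 in dark and light blue), and open marks at the left edge are libraries listed at 0. NELL2 at 7.50 and 4.79 FPKM in shLin28a lies far below its 52.6 and 63.9 FPKM in shNC, while EFNB2 and EFNB3 are among the most abundant members in all libraries.

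The members spanned a wide range of levels. In every library, 14 members were at or above 10 FPKM, and 13 stayed below 1 FPKM in all 4. Together the members took 0.399% and 0.383% of counts in the shLin28a libraries, against 0.357% and 0.344% in the shNC libraries. The summed level of all members was 784 and 829 FPKM in shLin28a, against 757 and 725 FPKM in shNC. Libraries of a group did not overlap with the other group for 25 members higher in shLin28a and 8 lower, on CPM (counts scaled to the library total) after TMM scaling. These are 42.4% and 13.6% of the tested members, where 18.8% and 22.9% of all tested genes lay apart in those directions. Either way it is 33 members, or 55.9%, where the share of all tested genes was 41.7%. On the deposited FPKM the members lying apart were 16 higher and 9 lower, where the shares of all tested genes were 10.7% and 28.5%. The median log2 fold change of the tested members was 0.50, where that of all tested genes was 0.01. With total counts in place of TMM these medians were 0.32 and −0.18. Of the tested receptors 22 of 27 had a positive log2 fold change, against 19 of 32 ligands. Over all tested genes 51.2% were positive.

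NELL2, the secreted ROBO3 ligand, showed the largest difference of any member. It lies on chromosome 5 at 75505092 to 75837324 of Sscrofa11.1. Its level was 7.50 and 4.79 FPKM in the shLin28a libraries, against 52.6 and 63.9 FPKM in the shNC libraries. These values rest on 194 and 37 counts in shLin28a, against 2001 and 1464 counts in shNC. Both shLin28a libraries lay far below both shNC libraries, and neither pair spread widely. The mean was 6.15 ± 1.92 FPKM in shLin28a and 58.3 ± 7.98 FPKM in shNC (SD, n = 2 each). The log2 fold change was −3.04 ± 0.25 (SE), with an edgeR adjusted p of 0.179 and a DESeq2 adjusted p of 1.22e-14. Leaving out any 1 library kept it between −3.20 and −2.87.

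ROBO3, the receptor of NELL2, went the other way. It lies on chromosome 9 at 52065043 to 52081764. Its level was 3.95 and 2.88 FPKM in the shLin28a libraries, against 0.32 and 0.83 FPKM in the shNC libraries. The counts were 161 and 35 in shLin28a, against 19 and 30 in shNC. In CPM, the exact Poisson intervals (95%) were 17.0 to 23.3 and 10.2 to 20.3 in shLin28a, against 0.966 to 2.50 and 2.84 to 6.01 in shNC, so counting error alone does not make the groups meet. In edgeR, the log2 fold change was 2.82 ± 0.51 (SE), with an edgeR adjusted p of 0.279 and a DESeq2 adjusted p of 0.00218. It was 3.65 without shNC 2 and 2.22 without shNC 1.

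The other ROBO receptors divided. ROBO1, the main SLIT receptor by level here, was at 13.4 and 9.93 FPKM in the shLin28a libraries, against 20.9 and 18.4 FPKM in the shNC libraries. Its fold change on the log2 scale was −0.52 ± 0.21 (SE), at an unadjusted edgeR p of 0.0505 and the groups apart. ROBO2 was at 1.73 and 3.27 FPKM in shLin28a, against 0.63 and 1.04 FPKM in shNC. The edgeR estimate, as log2 fold change, was 1.85 ± 0.56 (SE), the edgeR and DESeq2 adjusted p were 0.545 and 0.176, and it was 1.03 without shLin28a 2. The makeup of the family by FPKM therefore differed. ROBO1 made up 70.2% and 61.8% of the summed ROBO level in shLin28a, against 95.7% and 90.8% in shNC. ROBO3 made up 20.8% and 17.9% in shLin28a, against 1.46% and 4.10% in shNC. The summed level of the 3 receptors was lower in both shLin28a libraries, at 19.0 and 16.1 FPKM, against 21.9 and 20.2 FPKM in shNC. This difference in the sum was not tested.

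Among the SLIT ligands, SLIT1 was higher in both shLin28a libraries. It lies on chromosome 14 at 108446003 to 108624508. Its level was 38.4 and 24.3 FPKM in shLin28a, against 14.1 and 12.2 FPKM in shNC. The log2 fold change was 1.45 ± 0.24 (SE), with an edgeR adjusted p of 0.253 and a DESeq2 adjusted p of 0.000194, and it lay between 1.32 and 1.54 without any 1 library. SLIT3 was at 4.73 and 43.1 FPKM in shLin28a 1 and 2, against 2.70 and 9.44 FPKM in shNC 1 and 2. SLIT2 was at 3.82 and 15.7 FPKM in shLin28a 1 and 2, against 2.72 and 8.72 FPKM in shNC 1 and 2. For both, the groups overlapped and library 2 was the higher of each group. For SLIT3 the log2 fold change of 2.36 ± 1.22 (SE) turned to −0.38 without shLin28a 2, and for SLIT2 that of 1.09 ± 0.92 (SE) turned to −0.58. SLIT1 thus took 81.8% and 29.3% of the summed SLIT level in shLin28a 1 and 2, against 72.2% and 40.2% in shNC 1 and 2.

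**Figure D2:**
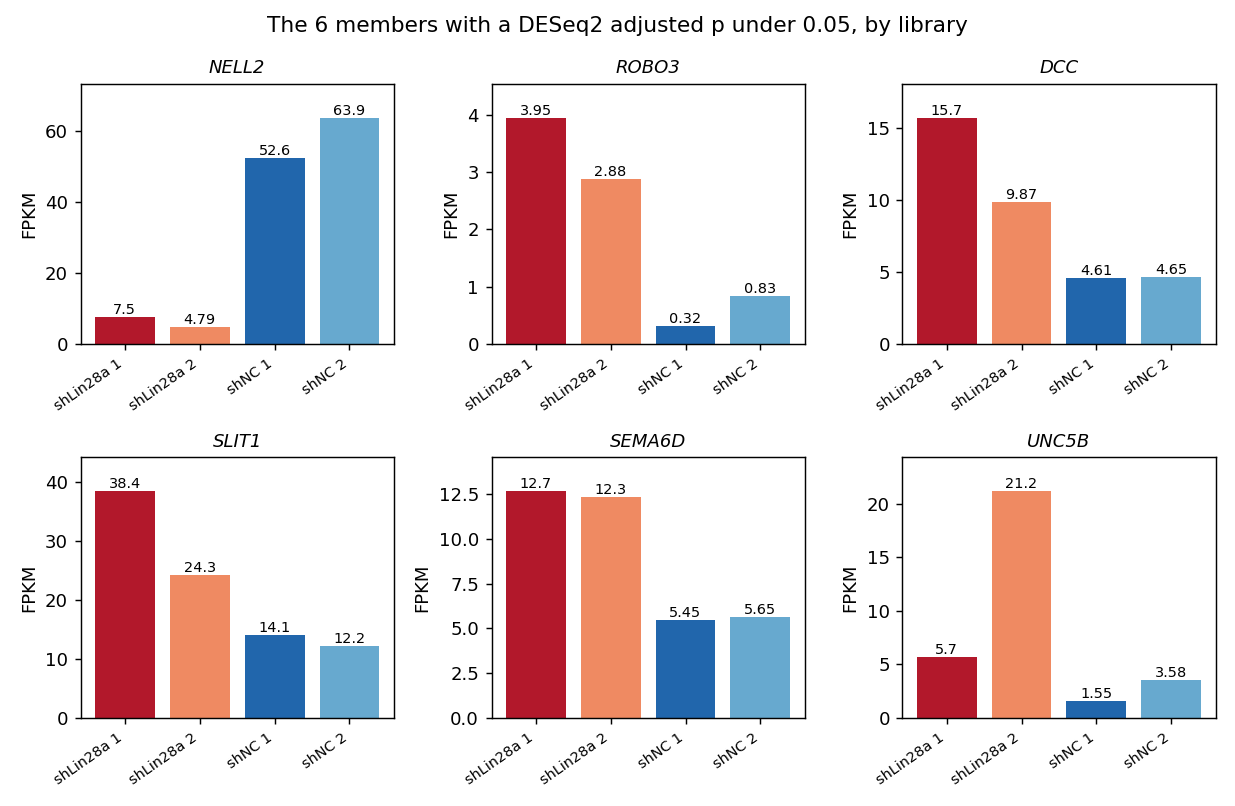
FPKM in each library of the 6 members with a DESeq2 adjusted p under 0.05. Each bar is 1 library, with shLin28a in red and orange and shNC in blue. NELL2 is lower in both shLin28a libraries and the other 5 are higher in both, with UNC5B at 5.70 and 21.2 FPKM in shLin28a 1 and 2.

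The netrin receptor DCC was higher in both shLin28a libraries than in both shNC libraries. It lies on chromosome 1 at 101518629 to 103087021. Its level was 15.7 and 9.87 FPKM in shLin28a, against 4.61 and 4.65 FPKM in shNC. The mean was 12.8 ± 4.15 FPKM in shLin28a and 4.63 ± 0.0283 FPKM in shNC (SD, n = 2 each). In edgeR, the log2 fold change was 1.67 ± 0.21 (SE), with an edgeR adjusted p of 0.219 and a DESeq2 adjusted p of 1.96e-05. It lay between 1.54 and 1.75 without any 1 library, and edgeR called it (adjusted p of 0.0435) when every gene of at least 1 count was tested.

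UNC5B, a repulsive netrin receptor that also acts in blood vessels, was higher in shLin28a with a wide spread. It lies on chromosome 14 at 74120055 to 74208055. Its level was 5.70 and 21.2 FPKM in shLin28a 1 and 2, against 1.55 and 3.58 FPKM in shNC 1 and 2. The log2 fold change was 2.75 ± 0.72 (SE), with an edgeR adjusted p of 0.452 and a DESeq2 adjusted p of 0.0131, and it was 1.65 without shLin28a 2. UNC5C, the most abundant UNC5 receptor on average though below UNC5B in shLin28a 2, was at 24.1 and 15.1 FPKM in shLin28a, against 20.9 and 19.6 FPKM in shNC, with overlapping groups. The log2 fold change of 0.15 ± 0.23 (SE) was −0.041 with total counts. UNC5A was at 2.33 and 1.24 FPKM in shLin28a, against 1.72 and 0.58 FPKM in shNC, and UNC5D stayed below 1 FPKM in all libraries. DCC made up 32.6% and 20.7% of the summed DCC and UNC5 level in shLin28a, against 15.8% and 16.0% in shNC.

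Among the ligands of these receptors, NTN1 varied most. NTN1, which codes for netrin-1, was at 5.51 and 34.3 FPKM in shLin28a 1 and 2, against 1.2 and 7.61 FPKM in shNC 1 and 2. The groups overlapped, and the log2 fold change of 2.43 ± 1.16 (SE) was 0.31 without shLin28a 2 and 3.94 without shNC 2. Its expected counts were not whole in 3 libraries, which means that some of its reads were shared with another row, as for PLXNC1 and SEMA5A, and these 3 values are uncertain. NTN4, a netrin that binds laminins of the basement membrane, was at 5.06 and 3.73 FPKM in shLin28a, against 2.33 and 2.80 FPKM in shNC. Its log2 fold change was 0.95 ± 0.25 (SE), with an edgeR adjusted p of 0.479 and a DESeq2 adjusted p of 0.552. NTN3 and NTN5 did not exceed 0.35 FPKM in any library and were not tested.

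**Figure D3:**
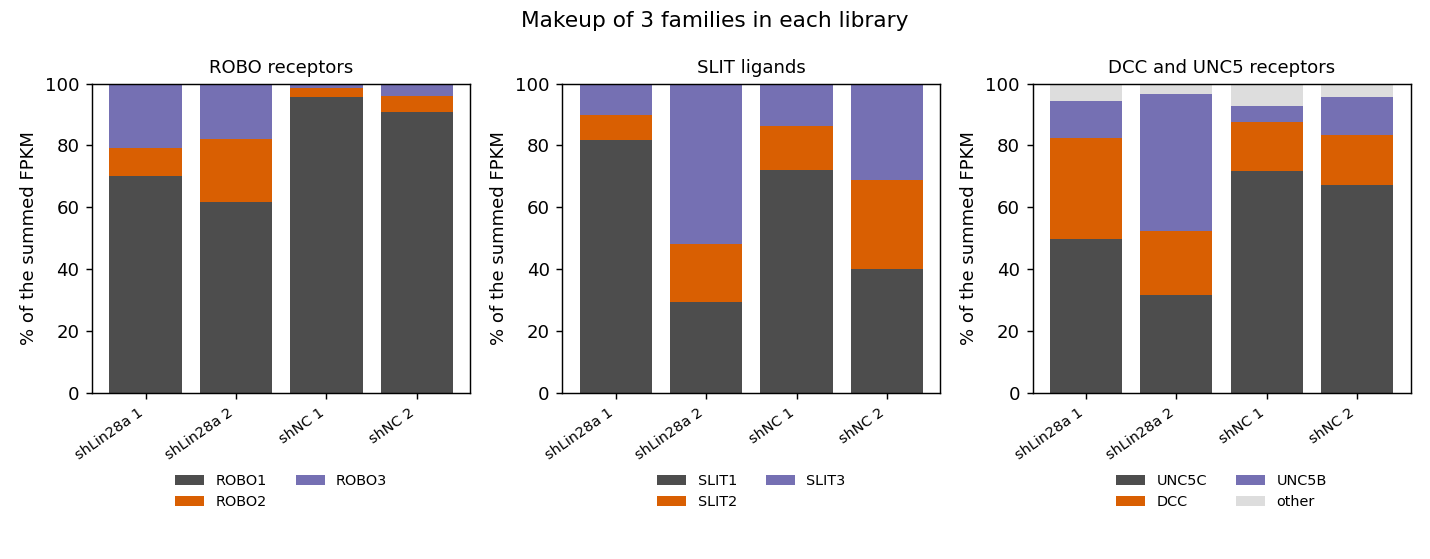
Share of each member in the summed FPKM of its family, as a percent, for the ROBO receptors, the SLIT ligands and the DCC and UNC5 receptors. Each bar is 1 library. ROBO3 makes up 20.8% and 17.9% of the ROBO level in shLin28a, against 1.46% and 4.10% in shNC, while the SLIT shares differ more between libraries 1 and 2 of a group than between groups.

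Among the membrane-bound semaphorins, 3 of the class 6 genes were higher in both shLin28a libraries. SEMA6D, a ligand of plexin-A1, was at 12.7 and 12.3 FPKM in shLin28a, against 5.45 and 5.65 FPKM in shNC. It lies on chromosome 1 at 123987528 to 124586062. The libraries of each group lay close together, at 12.5 ± 0.226 FPKM in shLin28a and 5.55 ± 0.141 FPKM in shNC (SD, n = 2 each). In edgeR, the log2 fold change was 1.37 ± 0.21 (SE), with an edgeR adjusted p of 0.246 and a DESeq2 adjusted p of 0.00797. SEMA6A, a ligand of plexin-A2 and plexin-A4, was at 7.43 and 4.70 FPKM in shLin28a, against 3.01 and 3.55 FPKM in shNC. Its fold change on the log2 scale was 1.08 ± 0.22 (SE), at an edgeR adjusted p of 0.328 and a DESeq2 adjusted p of 0.153. SEMA6B was at 5.46 and 1.94 FPKM in shLin28a, against 2.09 and 1.08 FPKM in shNC, so that the groups overlapped in FPKM although not after TMM scaling. Its log2 fold change of 1.39 ± 0.48 (SE) was 0.70 without shLin28a 1. The fourth class 6 gene, SEMA6C, had a log2 fold change of 0.10.

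The remaining class 4 to 7 genes gave little. SEMA4C, the most abundant of them, was at 17.8 and 8.37 FPKM in shLin28a, against 17.5 and 14.6 FPKM in shNC, with a log2 fold change of −0.12 ± 0.27 (SE). SEMA4B, SEMA4F, SEMA4G, SEMA5B and SEMA7A had log2 fold changes between −0.24 and 0.04, and SEMA4D, a ligand of plexin-B1, was at 0.50. SEMA5A was at 0.37 and 1.44 FPKM in shLin28a 1 and 2, against 0.27 FPKM in both shNC libraries, and its log2 fold change of 2.00 was 0.45 without shLin28a 2. SEMA4A did not exceed 0.14 FPKM and was not tested. Summed over the 13 genes, the level was 75.9 and 45.3 FPKM in shLin28a, against 56.1 and 47.6 FPKM in shNC.

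The secreted class 3 semaphorins split in direction. SEMA3D, the most abundant on average, was at 27.3 and 18.6 FPKM in shLin28a, against 26.5 and 28.2 FPKM in shNC, with a log2 fold change of −0.05 ± 0.22 (SE). SEMA3F, a ligand of neuropilin-2, was at 17.0 and 46.4 FPKM in shLin28a 1 and 2, against 11.2 and 15.4 FPKM in shNC 1 and 2. Its log2 fold change of 1.58 ± 0.63 (SE) was 0.35 without shLin28a 2. SEMA3C, a ligand of both neuropilins, was at 7.90 and 12.2 FPKM in shLin28a, against 19.1 and 14.9 FPKM in shNC. The groups lay apart in FPKM but overlapped after TMM scaling, and its log2 fold change was −0.60 ± 0.37 (SE). SEMA3A, the classical axon repellent that acts through neuropilin-1, was at 8.33 and 13.3 FPKM in shLin28a, against 8.30 and 4.66 FPKM in shNC, a log2 fold change of 0.64 ± 0.34 (SE).

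Both class 3 genes with an unadjusted p under 0.05 in the TMM-scaled edgeR fit were scarce, whereas in DESeq2 the abundant SEMA3F (0.0118) and SEMA3G (0.0426) were under it. SEMA3G had 3 and 0 counts in shLin28a, against 29 and 14 in shNC. Over the pooled libraries this is 0.287 CPM in shLin28a against 2.27 CPM in shNC, a ratio of 0.127 with an exact interval (95%) of 0.0251 to 0.395 for counting error alone. For the 0 counts in shLin28a 2, the exact Poisson interval (95%) reached up to 1.54 CPM. SEMA3E was at 0.47 and 0.41 FPKM in shLin28a, against 0.14 and 0.19 FPKM in shNC, from 15 and 4 counts against 9 and 4. In edgeR its log2 fold change was 1.56 ± 0.58 (SE) with an edgeR adjusted p of 0.606. SEMA3B had a log2 fold change of 0.49 ± 0.56 (SE) with overlapping groups.

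Plexins and neuropilins, all 10 of them tested, lay above 0 on the log2 fold change scale under TMM scaling, at a median of 0.84. With total counts PLXNA1 and PLXNA2 lay just below 0, at −0.0019 and −0.025, and without shLin28a 2 NRP2 and PLXNC1 were at −0.0054 and −0.066. NRP1, the SEMA3A receptor, was at 1.95 and 3.29 FPKM in shLin28a, against 1.30 and 1.26 FPKM in shNC. Its fold change on the log2 scale was 1.26 ± 0.43 (SE), at an edgeR adjusted p of 0.600, and it was 0.61 without shLin28a 2. NRP2, the SEMA3F receptor, was at 14.4 and 30.0 FPKM in shLin28a 1 and 2, against 14.7 and 14.2 FPKM in shNC, so that only shLin28a 2 stood apart in FPKM.

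PLXNA2 was the most abundant plexin, at 75.6 and 51.8 FPKM in shLin28a, against 69.7 and 60.0 FPKM in shNC. The groups overlapped in FPKM and its log2 fold change was 0.18 ± 0.26 (SE). PLXNB2, which binds class 4 semaphorins, was at 30.7 and 39.8 FPKM in shLin28a, against 27.8 and 23.8 FPKM in shNC. Its log2 fold change was 0.72 ± 0.33 (SE), with an edgeR adjusted p of 0.606, and it was 0.25 without shLin28a 2. PLXNA4 was scarce, at 0.24 and 0.30 FPKM in shLin28a, against 0.07 and 0.13 FPKM in shNC, with a log2 fold change of 1.57 ± 0.60 (SE). PLXNA1, PLXNA3 and PLXNB1 had log2 fold changes between 0.23 and 0.46. PLXND1 and PLXNC1 were highest in shLin28a 2, at 2.97 and 2.94 FPKM, and overlapped between groups.

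**Figure D4:**
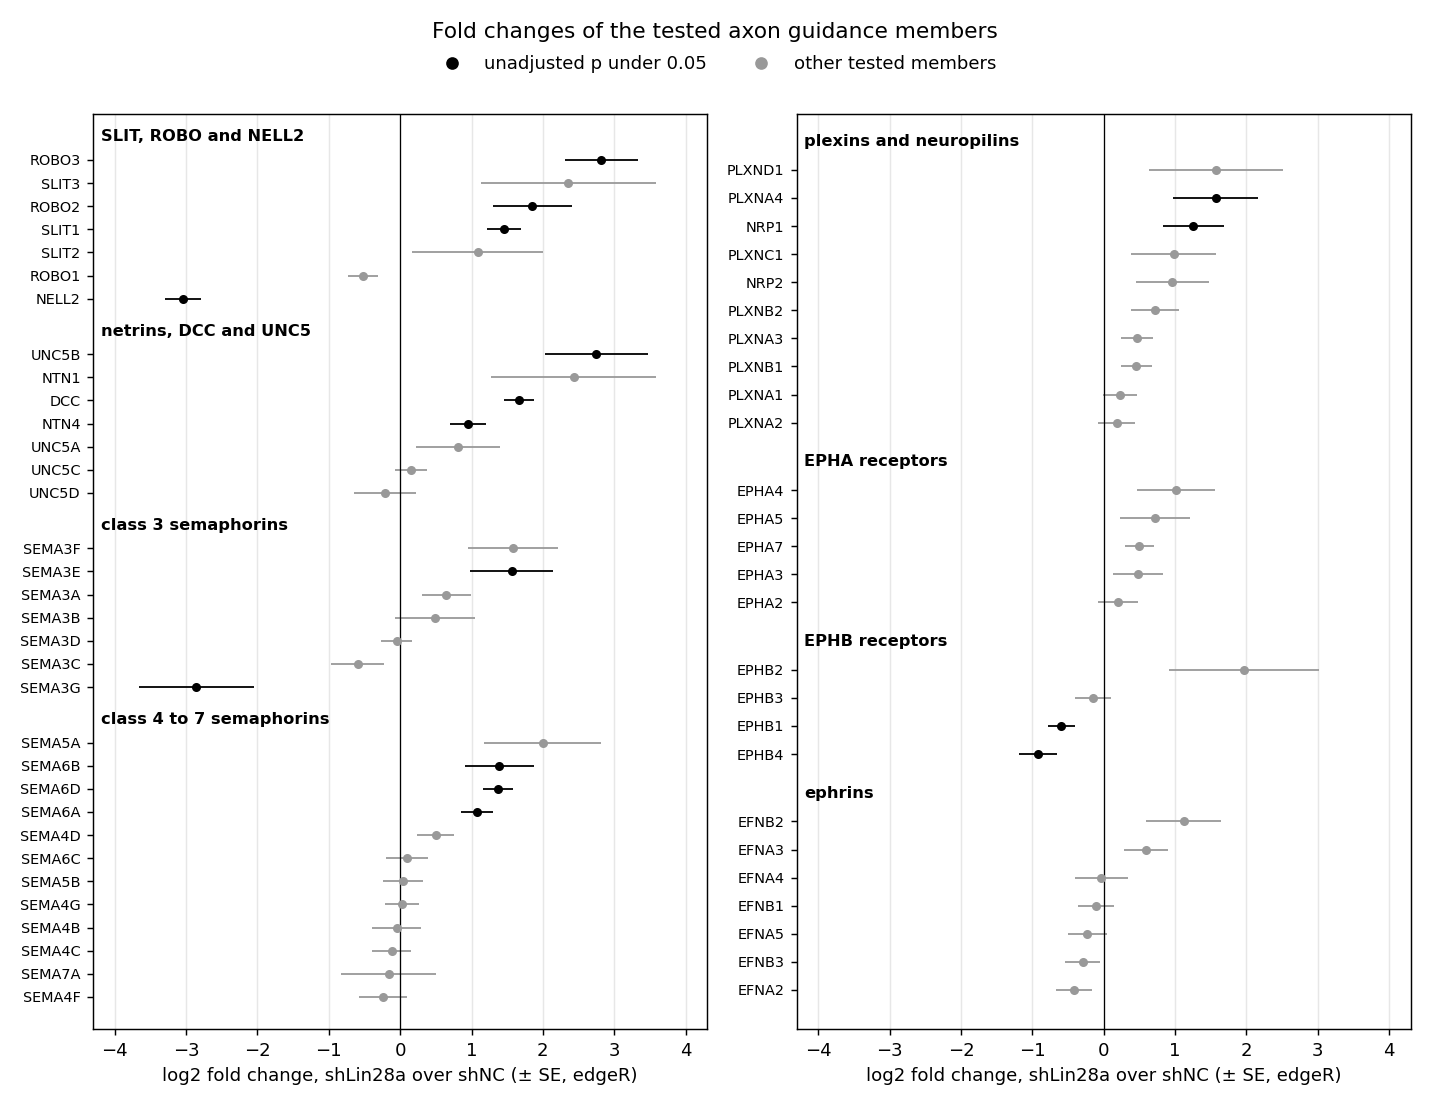
Log2 fold change of shLin28a over shNC for the 59 tested members, by system, from edgeR. Points are estimates and bars are standard errors, and black points have an unadjusted p under 0.05. ROBO3 at 2.82 and UNC5B at 2.75 lie at the upper end and NELL2 at −3.04 at the lower end, and all 10 plexins and neuropilins lie above 0 under TMM scaling.

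EPH receptors of the B type were lower or scattered, and the 5 tested ones of the A type lay above 0 under TMM scaling. None of these 5 had an unadjusted edgeR p under 0.05. For 4 of them the larger within-group difference exceeded the log2 fold change. EPHB4, a receptor of ephrin-B2, was at 10.45 and 4.94 FPKM in shLin28a, against 17.9 and 15.5 FPKM in shNC. Both shLin28a libraries lay below both shNC libraries, and the log2 fold change was −0.92 ± 0.27 (SE) with an edgeR adjusted p of 0.541. EPHB1, a receptor of ephrin-Bs that guides retinal axons at the optic chiasm in mice, was at 4.01 and 2.95 FPKM in shLin28a, against 6.47 and 5.73 FPKM in shNC. On the log2 scale its fold change was −0.60 ± 0.19 (SE) with an edgeR adjusted p of 0.557. EPHB3 was at 8.61 and 5.79 FPKM in shLin28a, against 11.12 and 7.46 FPKM in shNC, with overlapping groups and a log2 fold change of −0.15 ± 0.25 (SE) that was 0.13 without shNC 1. EPHB2 was at 0.55 and 2.78 FPKM in shLin28a 1 and 2, against 0.23 and 0.82 FPKM in shNC 1 and 2. The log2 fold change of 1.96 ± 1.05 (SE) was 0.10 without shLin28a 2. EPHB6 had 3 counts in shNC 2 and none elsewhere.

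EPHA7, a receptor of ephrin-A5 in cortex, was at 18.3 and 11.5 FPKM in shLin28a, against 11.7 and 12.3 FPKM in shNC. In FPKM its groups overlapped, although not after TMM scaling. Its fold change on the log2 scale was 0.50 ± 0.20 (SE), at an unadjusted edgeR p of 0.0559. EPHA2, which is also an epithelial receptor, was at 18.2 and 10.7 FPKM in shLin28a, against 11.7 and 17.2 FPKM in shNC. Its log2 fold change of 0.19 ± 0.28 (SE) was −0.083 without shNC 1. EPHA4, which binds ephrins of both types, was at 2.71 and 6.18 FPKM in shLin28a, against 1.82 and 3.07 FPKM in shNC. Its log2 fold change of 1.01 ± 0.55 (SE) was 0.15 without shLin28a 2. EPHA5 was at 0.59 and 0.52 FPKM in shLin28a, against 0.25 and 0.52 FPKM in shNC, and EPHA3 had a log2 fold change of 0.48 with overlapping groups. EPHA1, EPHA6, EPHA8 and EPHA10 did not exceed 0.46 FPKM and were not tested. By FPKM, EPHB receptors summed to 23.6 and 16.5 in shLin28a, against 35.7 and 29.5 in shNC, and EPHA receptors to 53.1 and 36.1 in shLin28a, against 31.5 and 43.1 in shNC.

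The ephrins held the most abundant ligands, and with all 4 libraries none was called by edgeR without a block or by DESeq2. EFNB3, a transmembrane ephrin of the spinal cord midline in mice, was at 99.5 and 60.4 FPKM in shLin28a, against 124 and 99.5 FPKM in shNC. In edgeR its log2 fold change was −0.30 ± 0.24 (SE) with an edgeR adjusted p of 0.678. EFNB2, the ligand of EPHB4 and a marker of arteries, was at 81.0 and 181 FPKM in shLin28a 1 and 2, against 74.7 and 74.8 FPKM in shNC. The log2 fold change of 1.12 ± 0.53 (SE) was 0.10 without shLin28a 2. EFNA2 was at 15.6 and 8.06 FPKM in shLin28a, against 20.0 and 16.5 FPKM in shNC, a log2 fold change of −0.42 ± 0.25 (SE). EFNA3 was at 6.58 and 3.70 FPKM in shLin28a, against 4.58 and 3.27 FPKM in shNC, overlapping in FPKM, with a log2 fold change of 0.59 ± 0.31 (SE). EFNA4, EFNA5 and EFNB1 had log2 fold changes between −0.23 and −0.04, and EFNA1 did not exceed 1.81 FPKM and was not tested. In the TMM-scaled edgeR fit no ephrin had an unadjusted p under 0.05, while EFNB2 had one of 0.0438 in DESeq2.

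Part of the members varied as much within groups as between them. The larger within-group difference exceeded the log2 fold change for 35 of the 59 tested members, or 59.3%, where 74% of all tested genes did so. Library 2 was above library 1 in both groups for 19 members, or 32.2%, where the share of all tested genes was 29.6%. In both groups, library 2 was over 1 log2 unit above library 1 for 6 members, SLIT2, SLIT3, NTN1, UNC5B, EPHB2 and PLXND1. That is 10.2% of the tested members, where the share of all tested genes was 2.73%. Across the 59 members the within-group differences of the 2 groups had a Pearson r of 0.71, where r was 0.56 across all 11967 tested genes. These are correlations across genes that share the same 4 libraries, so the genes are not independent replicates. The fibroblast markers followed the same order of libraries, with medians 2.26 higher in shLin28a 2 than in shLin28a 1 and 1.09 higher in shNC 2 than in shNC 1, on the log2 CPM scale. Their part in the levels of these 6 members was not tested. NELL2, DCC, SLIT1 and SEMA6D had within-group differences of at most 0.33 log2 units in either group. This was not particular to them, as ROBO1, EPHB1, SEMA6A, NTN4, UNC5C and PLXNA2, among others, lay within the same bound. The neuronal marker sums were higher in both shLin28a libraries, at 314 and 266 FPKM, against 193 and 192 FPKM in shNC. DCC and SLIT1 were also higher in both. The 10 tested neuronal markers had a median log2 fold change of 1.14, with 9 above 0 and 1 below. For 6 of them both shLin28a libraries lay above both shNC libraries after TMM scaling, and for 0 below. DESeq2 called 4 of them higher and 0 lower at an adjusted p under 0.05. GAP43 gave 114 FPKM of the neuronal sum in shLin28a 2 and 26.1 FPKM in shLin28a 1, against 19.3 and 45.0 FPKM in shNC 1 and 2. The part of the neuronal markers in the DCC and SLIT1 differences was not tested.

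**Figure D5:**
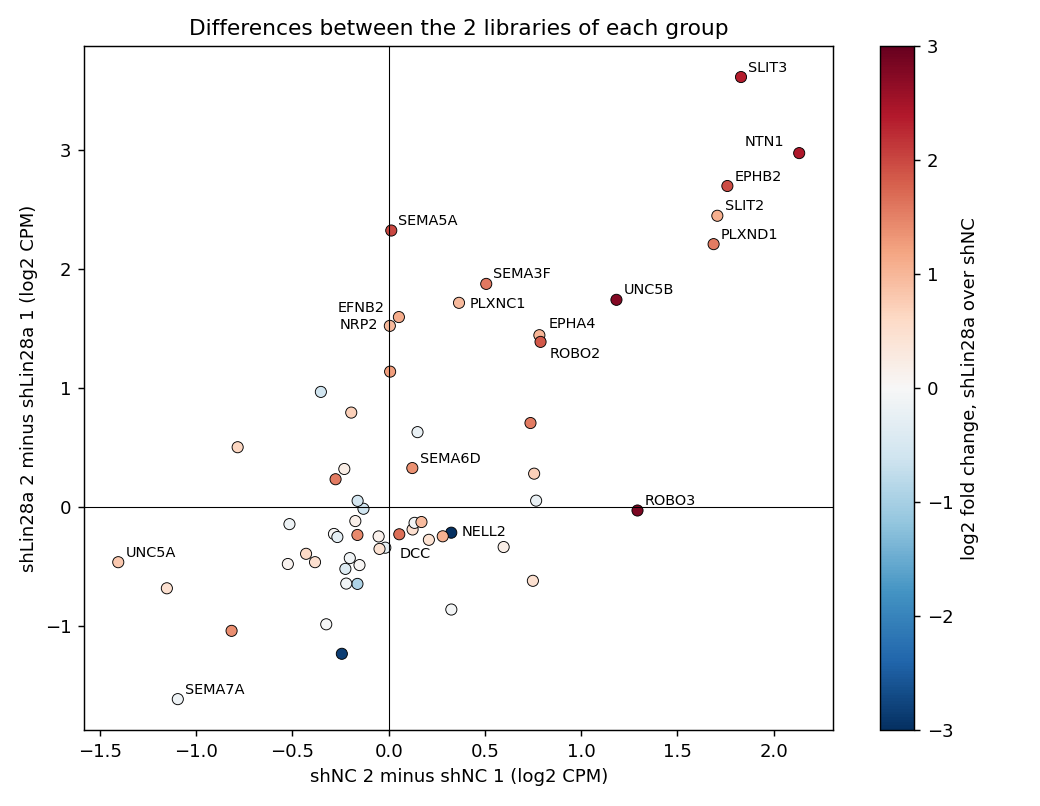
Difference between the libraries of a group, in log2 CPM, for the 59 tested members, with shNC 2 minus shNC 1 on the horizontal axis and shLin28a 2 minus shLin28a 1 on the vertical axis. Colour gives the log2 fold change of shLin28a over shNC. SLIT3, NTN1, EPHB2, SLIT2 and PLXND1 lie at the upper right, high in library 2 of both groups, while NELL2, DCC and SEMA6D lie near the centre with log2 fold changes of −3.04, 1.67 and 1.37.

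Other genes of the pathway were taken from lists of further cues, coreceptors and effectors, also chosen with earlier results of these data known. Of their 118 tested genes, 10 were higher at an unadjusted edgeR p under 0.05 (8.47%) and 3 were lower (2.54%), where the shares of all tested genes were 4.26% and 3.45%. The median log2 fold change was 0.20, where that of all tested genes was 0.01. Among the further cues and coreceptors, 4 of 35 tested were higher and 3 lower. CNTN2, an adhesion protein of commissural and other early axons, was at 39.5 and 25.1 FPKM in shLin28a, against 6.78 FPKM in both shNC libraries. It rose by the DESeq2 test (adjusted p of 6.45e-14), with an edgeR log2 fold change of 2.45 ± 0.23 (SE) and adjusted p of 0.179. NRCAM, an adhesion protein of the L1 family, was at 15.8 and 8.44 FPKM in shLin28a, against 7.48 and 7.07 FPKM in shNC. CHL1, of the same family, was at 0.99 and 1.10 FPKM in shLin28a, against 2.83 and 3.65 FPKM in shNC. FLRT2, a repellent for UNC5-bearing cells, was at 5.69 and 9.88 FPKM in shLin28a, against 3.77 and 4.31 FPKM in shNC. FLRT3 was at 6.11 and 4.21 FPKM in shLin28a, against 12.8 and 8.66 FPKM in shNC. TENM3 was at 5.21 and 3.80 FPKM in shLin28a, against 8.15 and 8.08 FPKM in shNC, and ADGRL1 at 15.0 and 16.2 FPKM in shLin28a, against 9.71 and 8.38 FPKM in shNC. The most abundant of this list were RTN4, at 165 and 471 FPKM in shLin28a against 132 and 205 FPKM in shNC, and NEO1, a DCC relative, with a log2 fold change of 0.62 ± 0.33 (SE).

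Among the effectors, few genes reached an unadjusted p under 0.05, and all 6 that did were higher in shLin28a. At that threshold 4.26% of all tested genes were higher and 3.45% were lower. The counts of 1 per list are near the background, and those of 2 per list, at 8.33% and 8%, also rest on few genes. Of the semaphorin and plexin effectors, 2 of 24 tested were higher and none lower. RND3, a GTPase that binds plexins, was at 88.6 and 253 FPKM in shLin28a 1 and 2, against 47.3 and 72.8 FPKM in shNC, and CDK5R1, the activator of CDK5, was at 9.54 and 4.57 FPKM in shLin28a, against 3.78 and 3.00 FPKM in shNC. Of the SLIT and ROBO effectors, 1 of 20 was higher, the kinase PAK3 with a log2 fold change of 0.73 ± 0.26 (SE). Of the netrin and DCC effectors, 1 of 18 was higher, the kinase SRC at 0.56 ± 0.21 (SE). Of the EPH and ephrin effectors, 2 of 25 were higher. KALRN, a guanine nucleotide exchange factor, was at 3.64 and 2.97 FPKM in shLin28a, against 1.88 and 1.82 FPKM in shNC, and CHN1, a RAC inhibitor that acts downstream of EPHA4, was at 15.3 and 11.97 FPKM in shLin28a, against 9.98 and 7.85 FPKM in shNC. The most abundant effectors included CFL1, which severs actin filaments, with a log2 fold change of 0.49 ± 0.37 (SE), and DPYSL3, a mediator of semaphorin signals, at 0.50 ± 0.28 (SE).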

How the data were processed

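Libraries were polyadenylated RNA sequenced on a BGISEQ-500, per the labels' protocols. Per the submitters' processing notes, the authors used Bowtie2 and RSEM 1.2.12 with the pig build Sscrofa11.1; neither strandedness nor the annotation is stated in the labels, so reads of overlapping genes may not be separated. The deposited table holds expected counts per gene, estimated by the authors and not normalised between libraries, and columns read here as FPKM. That unit is not in the header and was inferred from 3 genes, whose values implied 1.03 to 1.04 times the summed counts. Positions and names come from RefSeq genes on Sscrofa11.1, in which all 16026 identifiers matched.

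Counts were rounded and fitted with edgeR 4.0.16 in R 4.3.3 (filterByExpr, TMM, quasi-likelihood test, 2 residual degrees of freedom, Benjamini-Hochberg adjustment over 11967 genes). TMM factors were 1.07 and 0.798 in shLin28a, against 1.10 and 1.07 in shNC. DESeq2 1.42.0, limma 3.58.1 and, added after seeing the data, a block on the number in the library name were alternatives, and the scripts were tested on simulated data. Fold changes are shLin28a over shNC. FPKM scales to the library total, so FPKM and TMM scales differ for shLin28a 2, and the overlap on FPKM was added after seeing the data. Differences between libraries use log2 CPM with a prior count of 2. Intervals cover counting error only.

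Within each of 8 systems, the 3 members with the smallest p and the 2 with the highest level were to be given by library. SLIT2, SLIT3, ROBO1, ROBO2, SEMA3A, SEMA3C, SEMA5A, UNC5A, NRP2 and others were added after their values were seen. Members and lists were chosen with earlier results of these data known.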

Additional observations from a re-analysis of the deposited data

How the results depend on the processing

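With 2 libraries per group few residual degrees of freedom limit every test, and shLin28a 2 is the shallowest, so scarce members are known least there. Over all genes, edgeR called 0 higher and 0 lower. DESeq2 called 96 higher and 34 lower, among them 5 members higher and 1 lower. Total counts gave 2 and 6 genes, with 1 member lower (NELL2). Testing every gene of at least 1 count gave 28 and 12 genes, with 1 member higher (DCC) and 1 lower (NELL2). Limma called 1 and 1 gene on log2(FPKM + 0.1) and 1 lower gene on log2(FPKM + 1). At an unadjusted p under 0.05 it put 6 members higher with either pseudocount and 7 without the filter, against 12. The shares of all tested genes in these limma fits are not given here, so these counts cannot be read as particular to the members. Leaving out 1 library at a time gave 0 to 1110 genes higher and 0 to 94 lower, 0 to 13 members higher and 0 to 2 lower, and 9 to 20 members higher and 1 to 7 lower at an unadjusted p under 0.05. The upper ends came without shLin28a 1, which leaves shLin28a 2 alone, except the 7, which came without shLin28a 2. Without shLin28a 2, edgeR called 7 genes higher, 4 lower and NELL2 alone of the members. A lone library is assumed to vary like the other group.

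Of the 32 named members, 26 kept their sign under all 13 alternatives. With total counts UNC5C was at −0.041 and PLXNA2 at −0.025. On log2(FPKM + 1), with and without the filter, EPHA2, UNC5C and PLXNA2 were at −0.020, −0.076 and −0.046, and with the pseudocount of 0.1 they were at −0.022, −0.081 and −0.047. Leaving out 1 library gave EPHA2 −0.083 to 0.52, EPHB3 −0.38 to 0.13, SEMA3D −0.12 to 0.024 and SEMA4C −0.50 to 0.13. The causes were not tested.

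A replicate block on the last digit of the library names was added after seeing the data. The labels do not say that this digit pairs libraries, so the libraries share only a number. With the replicate block edgeR called 1032 genes higher and 306 lower of the 11967 tested, and 19 members higher and 3 lower of the 59 tested. All 6 members that DESeq2 called were among them, and no tested member changed sign. This fit has 1 residual degree of freedom and an infinite prior, so each gene's spread was set by the trend over all genes and its own spread did not enter. The library 2 minus library 1 differences of the groups had a Pearson r of 0.56 across all tested genes, and 2 pairs are too few to show whether the numbers pair the libraries.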

Other observations

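Several members are neighbours in the genome. ROBO1 (175348223 to 176479482) and ROBO2 (177365712 to 179040027) lie beside each other on chromosome 13 of Sscrofa11.1 and had log2 fold changes of opposite sign, at −0.52 and 1.85. SEMA3D (95280637 to 95486109), SEMA3A (95934937 to 96387950), SEMA3E (96682178 to 96941074) and SEMA3C (99114649 to 99432683) lie on chromosome 9, with log2 fold changes of −0.05, 0.64, 1.56 and −0.60. SEMA3F and SEMA3B lie within chromosome 13 between 32641376 and 32749633. SEMA3F was at 17.0 and 46.4 FPKM in shLin28a 1 and 2, against 11.2 and 15.4 FPKM in shNC 1 and 2. SEMA3B was at 2.71 and 1.11 FPKM in shLin28a 1 and 2, against 2.03 and 0.87 FPKM in shNC 1 and 2, so library 2 was the higher of each group for SEMA3F and the lower for SEMA3B.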
